A study of Sus scrofa with 12 samples.

Results

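TTN is the gene of titin, and its RNA was followed here through every DNA position at which GRID-seq placed it in pig longissimus muscle. GRID-seq ligates RNA to the chromatin next to it through a linker, so that each RNA is read together with a piece of DNA. TTN is 1 of 1122 RNA entries, by name and position, in the 4 GRID-seq lists. Of these, 737 have a gene name or identifier, and 385 are unnamed transcripts, which could not be matched between libraries. The members of TTN were the rows of these lists that name it, each a 1-kb bin of DNA with a background-corrected signal. With libraries ordered as LW replicates 1 and 2 and then MS replicates 1 and 2, as in all lists of 4 values here, there were 125715, 104803, 211276 and 172341 such bins, of 768870, 951576, 737738 and 981142 bins of all RNAs. Loops of H3K27ac BL-HiChIP with an anchor within 1 kb of an end of TTN were added.

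The study compared skeletal muscle of 2-week-old piglets of Large White (LW), a commercial lean breed, with Meishan (MS), a local Chinese breed. Both breeds were untreated, and each gave 2 libraries of GRID-seq and 2 of BL-HiChIP, a chromatin contact assay that enriches for an antibody target, here H3K27ac of active promoters and enhancers. The study names male piglets, and it is not clear that each replicate is its own animal, so that p-values may measure technical spread alone. The samples are whole muscle, and the lists hold chromatin-enriched RNAs only. Of 10 muscle fibre markers, CKM, MYH7, NEB, TNNT1 and TNNT3 were listed in all 4 libraries. ACTA1, MYH1, MYH2, MYH4 and RYR1 were in none under these names. Of 4 fibroblast markers, COL1A1 was listed in all 4 libraries and COL3A1 in all but MS replicate 1. None of 4 cardiac markers was listed, nor any adipocyte, endothelial, immune cell or blood marker.

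Titin is the giant spring protein of the sarcomere and reaches from the Z-disc to the M-band. Its transcript is among the longest in the body and is spliced by RBM20 into many forms, some of this splicing while the RNA is still at its gene. In the nucleus, RNA found at the gene itself is mostly nascent, and an RNA found on another chromosome is called a trans contact.

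TTN gave more chromatin-associated reads than nearly any other RNA. Its count was 914086 reads in LW replicate 1 and 1016278 in LW replicate 2, which were 11.2% (95% Wilson interval 11.15 to 11.19) and 10.2% (10.20 to 10.24) of all listed reads and the highest count of both lists. It was 697633 reads in MS replicate 1 and 830738 in MS replicate 2, which were 9.73% (9.70 to 9.75) and 8.85% (8.84 to 8.87) and second to the lncRNA ENSSSCG00000044834. Intervals cover counting error only. The breeds did not overlap in this share.

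Scaled by TMM over the 308 RNAs with a gene name or identifier that were listed in every library, TTN stood at 132939 and 133652 CPM (reads scaled to equal library size) in LW and at 118220 and 118417 in MS. It was lower in MS by a log2 fold change of -0.17 ± 0.01 (SE, n = 2 per breed, edgeR quasi-likelihood test, adjusted p = 0.000376). This call is common: 86.7% of the 308 RNAs passed the same test, and 44.2% passed it with a lower level in MS. At an unadjusted p under 0.05 these shares were 87% and 44.5%. When all named RNAs of any library entered the fit, the change was -0.14 with an adjusted p of 0.0874. In whole tissue, fewer fibres and less RNA per fibre cannot be told apart. A further 3 RNAs on the same strand lie inside TTN, and how reads were divided among them was not tested. ENSSSCG00000038561 is the largest of them, with 8.33 to 8.36% as many reads as TTN in the 4 libraries.

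The deposited signal has no stated scale. Across all RNAs of a library, summed signal and reads had a Spearman correlation of -0.01 to 0.30. Since it did not follow the reads closely, it is read here as a distribution over places and not as an amount of RNA. Signal on chromosomes other than 15 made up 58.1%, 54.7%, 76.9% and 76.6% of TTN signal. TTN itself with 10 kb on both sides held 23.2%, 24.1%, 11.7% and 11.99%, and the rest of chromosome 15 held 18.7%, 21.3%, 11.5% and 11.4%. The libraries of a breed lay close together and the breeds were apart in all of these shares. The share on other chromosomes was 20.3 percentage points higher in MS (exact permutation test, two-sided, p = 0.333), and 2 libraries against 2 can give no smaller p. Unless stated, sums of signal below are not scaled to total TTN signal, which was 104126, 91539, 158254 and 124091. Breeds that overlap or lie apart in such sums need not do so in shares.

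**Figure D1:**
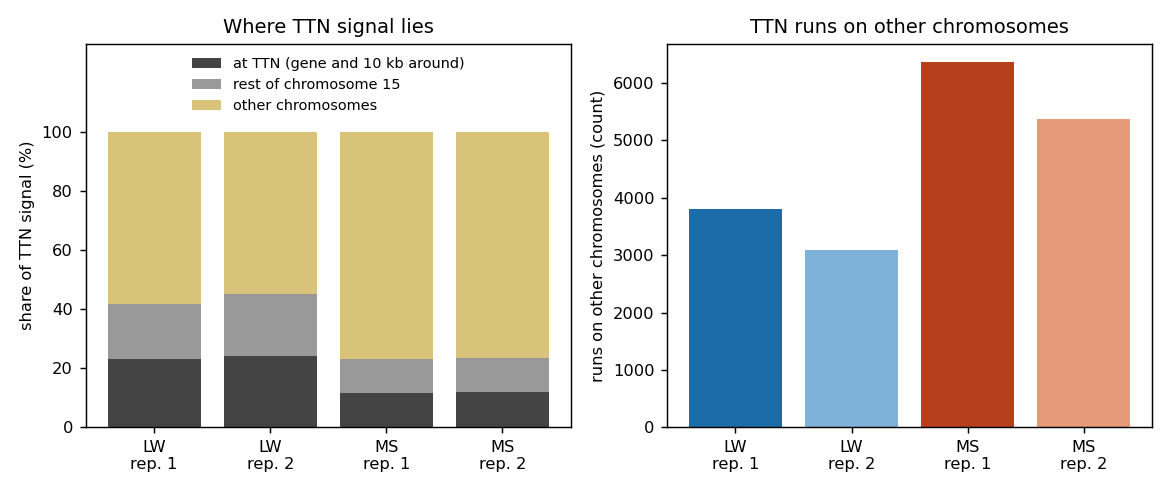
Left, share of TTN signal in percent at TTN, on the rest of chromosome 15 and on other chromosomes, as stacked bars, 1 per GRID-seq library. Right, number of TTN runs on other chromosomes. Other chromosomes hold 76.9% and 76.6% of the signal in MS against 58.1% and 54.7% in LW, and both MS libraries have more runs than both LW libraries.

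Listed bins come as runs of touching bins, and the bin of highest value in a run is called its summit here. Outside chromosome 15 there were 3812 and 3092 runs in LW against 6362 and 5367 in MS, with a median length of 27 to 28 kb. A run was at least 22 kb long, except 1 of 15 kb in MS replicate 1, and no run summed to less than 8.01, so that weaker contacts are not in the lists. Bins of a run are not independent. Runs were counted for densities by chromosome and window, whereas shares given in bins count a longer run more often.

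Together the bins on other chromosomes covered 4.80% and 3.91% of those chromosomes in LW against 8.49% and 6.96% in MS. Their mean signal per bin differed less than their number, at 0.559 and 0.568 in LW against 0.636 and 0.607 in MS. Summed signal on other chromosomes was 1.96 times as high in MS over 1.77 times the covered length, whereas signal at TTN was 0.72 times as high in MS. TTN supplied 22.97% and 16.9% of all trans bins of any RNA in LW against 35.0% and 22.6% in MS. By this number its rank among the RNAs of a library was 2, 3, 1 and 3.

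Inside its own gene TTN signal had 2 rises. TTN spans 274 kb on the minus strand (Sscrofa11.1, chr15:84226953-84501320). In 10 equal segments counted from the start, the mean signal per bin was 107.5, 104.5, 82.2 and 72.4 in segment 4. It was lower in segment 6, at 39.0, 35.8, 32.3 and 25.9, and highest in segment 9, at 175, 152, 108 and 92.6. All 4 libraries had this shape. The bin of highest signal was chr15:84270001-84271000 in both LW libraries and MS replicate 1, 231 kb from the start, with values of 204, 177 and 127. In MS replicate 2 it was the next bin toward the 3-prime end, chr15:84269001-84270000, with 112.

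Beyond the gene, TTN signal spread unequally to the sides. From 1 to 10 Mb past the 3-prime end the summed signal was 3541 and 3847 in LW against 2103 and 1473 in MS, with 30.3%, 32.8%, 26.3% and 18.7% of positions listed. Over the same distance beyond the start it was only 379 and 319 in LW against 1367 and 758 in MS, with 6.41%, 5.43%, 18.1% and 11.6% of positions listed. LW was thus above MS on the side of the 3-prime end and below it on the other, without overlap on either side.

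The change beyond the start was abrupt in LW. The first Mb held 2645 and 2709 in LW against 2298 and 2384 in MS. The second Mb held 47.2 and 56.7 in LW against 677 and 372 in MS. LW was higher in the first and lower in the second, and no value overlapped.

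Farther out, the breeds parted on the distal arm of chromosome 15. Between 130 and 140 Mb the summed signal was 4300 and 3741 in LW against 1392 and 848 in MS, and TTN was listed at 42.4% and 38.4% of positions in LW against 17.1% and 12.2% in MS. Among the 5 strongest runs of each LW library over 10 Mb from TTN were runs there on HDAC4, a histone deacetylase that represses MEF2 targets, and on DIS3L2, an RNA exonuclease. A 4-Mb block nearer to TTN held 968 and 1032 in LW against 1010 and 673 in MS. These unscaled sums overlapped, and shares of total TTN signal were not compared. In it lie DES, the muscle intermediate filament desmin, and its neighbour SPEG, a muscle kinase. TTN signal at the ends of DES was 32.8, 28.4, 34.4 and 32.6. These blocks were chosen after their values were seen.

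**Figure D2:**
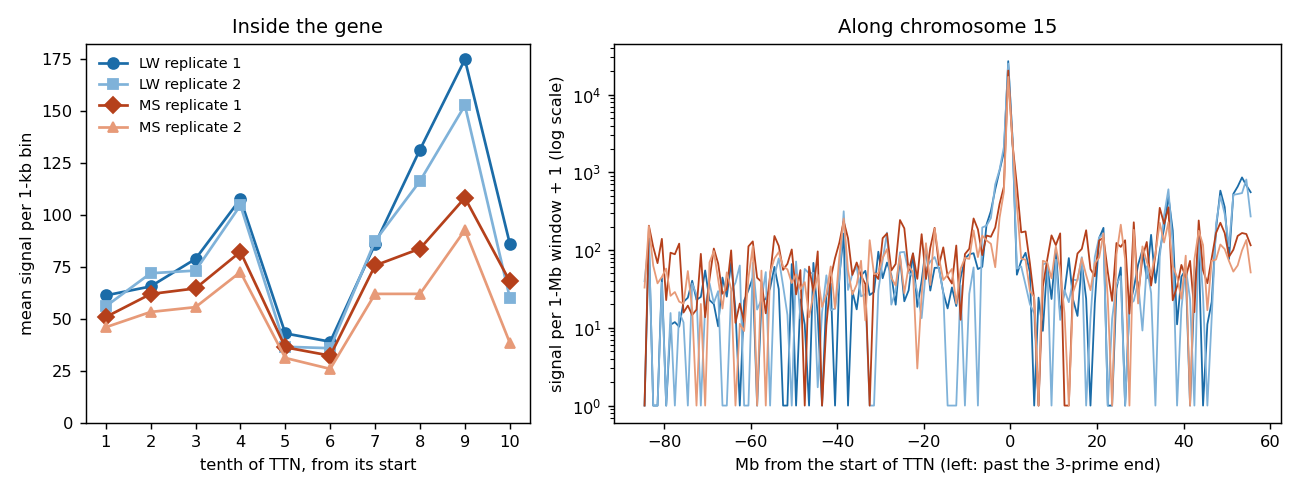
Left, mean TTN signal per 1-kb bin in each of 10 equal segments of the gene from its start. Right, summed TTN signal plus 1 per 1-Mb window on a log scale against the distance from the start of TTN in Mb, with the 3-prime side at the left. Lines are the 4 GRID-seq libraries. All have rises in segments 4 and 9, and the LW lines lie above the MS lines at the right end of the chromosome.

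The start of TTN was also a loop anchor. BL-HiChIP linked the 5-kb bin chr15:84500001-84505000 to 7, 8, 7 and 4 other bins, and no loop within 1 kb of a gene end came from the 3-prime end. The 13 distinct loops all ran away from the gene, over 5 to 295 kb. Of their far anchors 10 lay in CCDC141, the neighbouring gene upstream, and the last in SESTD1.

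2 of the loops were called in all 4 libraries, one of 20 kb to a bin without a gene and one of 90 kb into CCDC141. The strength of the latter, as -log10 of the FDR, was 26.4 and 33.6 in LW against 21.3 and 32.5 in MS, which overlapped. The loop of 60 kb had 30.2 in LW replicate 1 and 45.0 and 52.2 in MS, and in LW replicate 2 a loop of 65 kb to the next bin had 52.9. Summed over its loops, the score of TTN was 100 and 152 in LW against 113 and 92.8 in MS. After quantile normalization the scores were 116, 120, 151 and 87.5, and their log2 difference of MS to LW was -0.03 ± 0.78 (SE, n = 2 per breed, limma, adjusted p = 1.00), so that a difference was not detected. In this comparison of 15412 genes with loops 0% passed an adjusted p of 0.05 and 5.33% an unadjusted one, 2.5% higher and 2.82% lower in MS. Without this normalization the log2 difference was -0.27 (adjusted p = 0.955, limma), and with anchors within 5 kb it was 0.20.

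TTN RNA lay over these anchors too. On the 13 far anchors its summed signal per 5 kb had a median of 34.8 and 31.7 in LW against 32.7 and 34.4 in MS, beside 24.6, 29.0, 22.8 and 19.9 on the other 47 of the 60 bins nearest the start. The ranges overlapped in all 4 libraries, and the medians are a description. Signal also fell with distance from TTN. It was 42.9, 46.1, 32.7 and 38.6 in the first of the 60 bins and 27.5, 30.5, 14.6 and 20.5 in the last. Most far anchors lay in the nearer part of this span, and the part of distance in their medians was not tested.

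Among the other chromosomes, TTN runs were densest on chromosome 12 and sparsest on X. Chromosome 12, the most gene-rich, had 39.9 and 40.8 runs per 10 Mb in LW against 56.7 and 56.2 in MS. The median autosome had 18.6 and 13.4 in LW against 29.5 and 23.7 in MS. Chromosome X had 2.06 and 1.59 in LW against 9.13 and 6.43 in MS, which was 0.11 to 0.12 of the median autosome in LW and 0.27 to 0.31 in MS. Males have a single X, and the part of copy number and of mapping in these values was not tested. All 18 chromosomes had more TTN bins in both MS libraries than in both LW libraries.

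**Figure D3:**
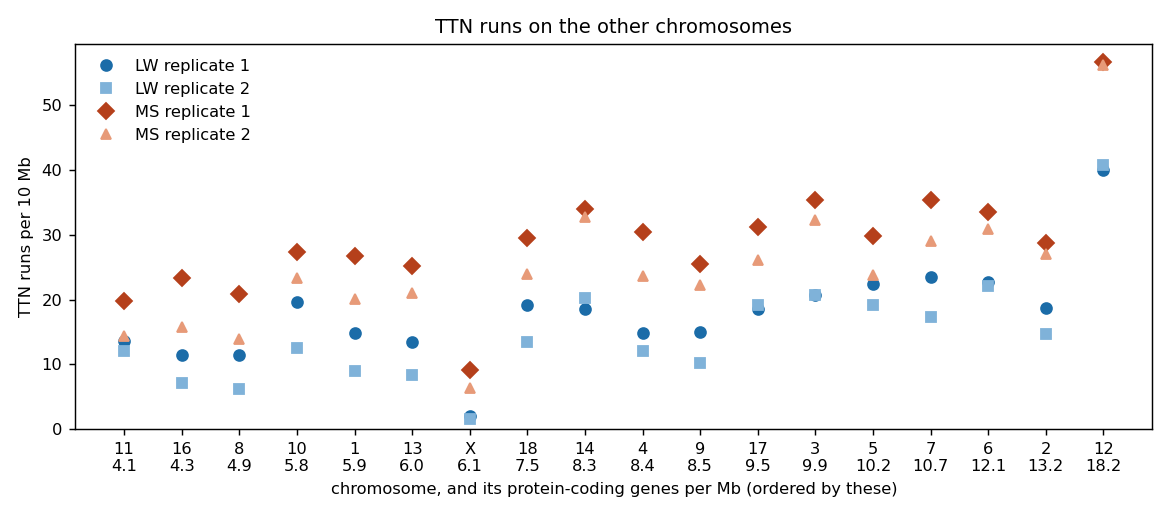
TTN runs per 10 Mb on each chromosome other than 15, in order of protein-coding genes per Mb (second line of the labels). Points are the 4 GRID-seq libraries. Chromosome 12 is highest, at 39.9 to 56.7, and X lowest, at 1.59 to 9.13, and both MS points lie above both LW points on each chromosome.

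By chromosome, run density followed gene density alike in both breeds, with a Spearman correlation of 0.76 to 0.80 over 18 chromosomes. Over smaller windows the relation was weaker. Over 2239 windows of 1 Mb, which share library and mapping, the correlation of runs with protein-coding genes was 0.02 and 0.12 in LW against 0.35 and 0.22 in MS. Windows without a coding gene held 1.86 and 1.47 runs on average in LW, those with 6 to 10 genes 1.38 and 1.05, and those with over 20 genes 2.74 and 2.90. In MS the same classes held 1.25 and 1.54, 3.32 and 2.39, and 3.33 and 3.07 runs. LW was therefore lowest in windows of middle gene density, and MS in windows without genes.

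**Figure D4:**
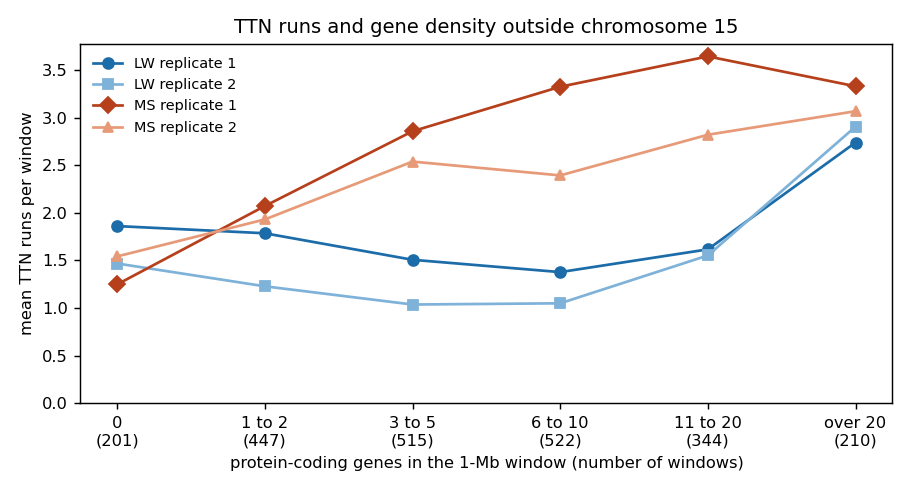
Mean number of TTN runs per 1-Mb window outside chromosome 15, by the number of protein-coding genes in the window, with the number of windows in brackets. Lines are the 4 GRID-seq libraries. The LW lines dip to 1.38 at 6 to 10 genes in replicate 1 and to 1.04 at 3 to 5 genes in replicate 2. They end at 2.74 and 2.90, and the MS lines start lowest, at 1.25 and 1.54.

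Single positions recurred less than this broad pattern. Of 469520 bins on other chromosomes with TTN in any library, 85.9% were in 1 library and 751 bins in all 4. LW replicate 1 shared 10.2% of its bins with LW replicate 2, which shared 12.5% in turn, and the MS replicates shared 14.9% and 18.2%. Between breeds the shares ran from 4.31 to 12.6%. Over 1-Mb windows the number of runs had a Pearson correlation of 0.41 within LW, 0.34 within MS and 0.03 to 0.22 between the breeds, over windows that share mapping.

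The 751 bins seen in every library formed 47 stretches outside chromosome 15. The longest, chr12:20145001-20177000, is 32 kb long and holds CNTNAP1, CCR10 and PLEKHH3, with TTN signal of 40.2 and 47.2 in LW against 38.3 and 44.8 in MS. Next was chr5:9309001-9340000 with GTPBP1, JOSD1 and TOMM22, at 26.3, 26.9, 40.9 and 44.4. Others held RARA, a retinoic acid receptor, HEXIM1 and HEXIM2, inhibitors of the elongation factor P-TEFb, SRF, a transcription factor of muscle genes, PER1, a clock gene, and ENO3, the muscle enolase. The middles of 68.1% of the stretches lay within 5 kb of a gene end, and 70.2% lay on an LW loop anchor and 59.6% on an MS one. Of all positions outside chromosome 15, these places hold 17.9%, 12.7% and 10.6%. Of all TTN run summits on other chromosomes, 25.7 to 32.0% by library lay at gene ends and 21.7 to 30.0% on anchors of the same breed. Several of the longest stretches lie on gene-rich chromosome 12, and its part in these shares was not tested.

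By the mean of the 4 libraries, the gene ends with the most TTN signal on other chromosomes were those of PLEKHH3. Its summed signal within 5 kb of its ends was 31.9 and 33.8 in LW against 32.3 and 32.9 in MS. DDX5, an RNA helicase of splicing and transcription, had 21.4 and 21.7 in LW against 42.8 and 34.5 in MS, higher in MS without overlap. JOSD1, a deubiquitinase, had 19.5 and 19.2 in LW against 30.3 and 34.0 in MS, also apart as unscaled sums. The next were CCR10, a chemokine receptor gene in the same stretch as PLEKHH3, ACBD4, SMARCD2, a subunit of the SWI/SNF remodeller, SIN3A, a corepressor scaffold, SPAG7, CBX2, a Polycomb protein, and PSMC5, a proteasome ATPase. Their means ran from 25.2 down to 22.01. CBX2 had no listed bin in LW replicate 1 and had 30.9, 5.17 and 53.9 in the others. 8 of these 10 genes lie on chromosome 12.

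TTN signal was also counted at genes of the sarcomere and at genes silent in muscle. A value of 0 at a gene means that no bin was listed there. Of 18742 protein-coding genes on other chromosomes, 13.0% and 12.8% had TTN signal within 5 kb of an end in LW against 24.1% and 20.5% in MS. Of 22 genes of proteins that bind or act on titin, 7 and 8 had signal in LW against 8 and 12 in MS. ACTN2, the Z-disc actin crosslinker that anchors titin, had 0, 9.38, 18.7 and 17.3. TCAP, which caps the titin end at the Z-disc, had 9.60, 0, 10.9 and 18.97. No gene of this list had signal in all 4 libraries.

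Of 29 other sarcomere genes, 8 and 9 had signal in LW against 6 and 16 in MS, so that the MS libraries lay on both sides of LW. ACTA1, skeletal actin, had 16.3, 13.1, 0 and 22.4, and MYOZ1, a Z-disc protein, had 19.2, 10.4, 9.86 and 4.48. Of 16 genes whose RNAs RBM20 splices in heart, 3 and 6 had signal in LW against 3 and 6 in MS. NRAP had 0, 13.5, 0 and 19.2 among them. Of 43 target genes that the study linked to muscle traits, 12 and 8 had signal in LW against 10 and 13 in MS, with HEXIM1 at 11.7, 18.5, 25.2 and 23.1. Of 22 genes silent in muscle, 2, 2, 2 and 1 had signal, among them PNLIP, pancreatic lipase, in LW replicate 2 alone, and the pituitary gene LHB in MS replicate 2 alone. The shares of the silent list were 9.09%, 9.09%, 9.09% and 4.55%, which at 22 genes is a difference of few genes from all coding genes. In MS replicate 1 the sarcomere list (20.7%), the RBM20 list (18.75%) and the target genes (23.3%) also lay below the 24.1% of all coding genes. In LW replicates 1 and 2 and MS replicate 2 these lists lay above all coding genes. There the sarcomere list had 27.6%, 31.0% and 55.2%, the RBM20 list 18.75%, 37.5% and 37.5%, and the target genes 27.9%, 18.6% and 30.2%. Titin partners lay above all coding genes in every library, at 31.8%, 36.4%, 36.4% and 54.5%.

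Differences between the breeds at single places did not pass a test over all places. Of 2376 windows of 1 Mb with TTN in any library, 0% passed an adjusted p of 0.05 in limma on log2(signal + 1), whereas 15.5% had an unadjusted p under 0.05, 335 windows (14.1%) with higher and 33 (1.39%) with lower signal in MS. The smallest adjusted p was 0.0568. Both MS libraries lay above both LW libraries in 44.4% of windows and below them in 8.67%. Places without a listed bin entered this test and the next as 0, though weaker contacts there are not excluded. Chromosome 12 between 7 and 8 Mb, the window of smallest p, had no listed bin in either LW library and had 177 and 156 in MS. Chromosome 11 between 34 and 35 Mb had 57.3 and 41.9 in LW and no listed bin in MS. In all, 245 of 2239 full windows on other chromosomes had TTN in both MS libraries and in neither of LW, and 22 had the reverse.

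The same comparison at the ends of 13084 genes again gave 0% at an adjusted p of 0.05 (limma), and 8.53% at an unadjusted p under 0.05, of which 841 genes (6.43%) were higher and 275 (2.1%) lower in MS. The smallest adjusted p was 0.0999. Both MS libraries lay above both LW libraries at 10.9% of genes and below them at 4.32%. Windows of neighbouring genes overlap, so genes are not independent. TTN itself had 341 and 359 in LW against 407 and 273 in MS, which overlapped as unscaled sums.

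The 5 genes of smallest p with more signal in MS were KBTBD8, PFDN4, LOC110261182, CLDN12 and LOC110261623, on 5 chromosomes. PFDN4, a subunit of the chaperone prefoldin, had no listed bin in either LW library and had 35.7 and 30.4 in MS. CLDN12, a claudin, had 0.0508 and 0 in LW against 27.2 and 27.1 in MS. The 5 with more signal in LW were LOC100517977, NDUFA10, COPS7B, LOC110257180 and NCL, all on chromosome 15. NDUFA10, of respiratory complex I, had 29.5 and 29.2 in LW, and NCL, nucleolin, had 25.9 and 36.0, and neither had a listed bin in MS. Except LOC100517977, which lies within 1 Mb of TTN and had 45.1 and 44.7 in LW, these genes are in the distal block between 130 and 140 Mb. Of all 565 genes at which LW lay above MS, 23.7% were on chromosome 15, against 7.33% of the 1432 genes with the opposite order and 5.61% of genes tested.

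The breeds were apart at some members of the lists. Of 20 titin partners tested, 6 were higher in both MS libraries and 2 in both LW libraries, beside 10.9% and 4.32% of all genes, and LDB3, MYBPC2 and NBR1 had an unadjusted p under 0.05. LDB3, a Z-disc protein, had 0 and 0.961 in LW against 21.6 and 8.47 in MS. Of 25 sarcomere genes, 2 were higher in MS and 1 in LW, and MYL1, a fast myosin light chain gene on chromosome 15, had 0 and 0 in LW against 15.0 and 29.2 in MS. Of 12 RBM20 targets, 1 was higher in MS, and of 7 silent genes none was apart. Of 33 target genes of the study 5 (15.2%) were higher in MS and 6 (18.2%) in LW. Unlike the counts on other chromosomes above, the lists here include genes of chromosome 15. PRKAG3, BCS1L, GMPPA and COL6A3, which are among the 6 target genes higher in LW, lie on it. The median log2 difference of MS to LW was 0.81 for titin partners, 0.24 for the sarcomere, -0.30 for RBM20 targets, -0.05 for silent genes and 0.44 for target genes, beside 0.68 for all genes.

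TTN lay at gene ends and loop anchors more often than the genome as a whole does. Of its bins on other chromosomes, 22.01% and 26.0% in LW against 25.8% and 25.4% in MS were within 5 kb of a gene end, where 17.9% of positions lie. On anchors of loops of the same breed were 17.3% and 24.1% in LW, where 12.7% of positions lie, and 17.1% and 18.2% in MS, where 10.6% lie. These shares were higher in the strongest runs than in the weakest. In runs that summed to under 10, the summits on an anchor were 11.2%, 15.9%, 13.1% and 8.79%, and in runs of 25 or more they were 40.1%, 49.8%, 39.6% and 46.7%. At gene ends the same shares were 15.9%, 18.8%, 25.8% and 18.3% in weak runs and 35.7%, 45.0%, 44.3% and 49.0% in strong ones.

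3 other RNAs that spread over other chromosomes were set beside TTN in the same libraries. By the mean of the libraries TTN was most like ENSSSCG00000044834, a lncRNA of chromosome 7. Its mean Spearman correlation in the number of bins per window was 0.34 over 2135 windows of 1 Mb (0.32 to 0.37 by library). Lower were ENSSSCG00000048037 at 0.23 (0.06 to 0.38), ENSSSCG00000048856 at 0.17 (0.05 to 0.25) and NEB at 0.13 (0.07 to 0.21). In MS replicate 1 the order was reversed, with 0.38 for ENSSSCG00000048037 and 0.35 for ENSSSCG00000044834. Each of these RNAs had at least 1000 trans bins in every library. In LW, where TTN had fewer trans bins, ENSSSCG00000044834 had 223431 and 191755, and in MS it had 44248 and 42885, opposite in order to TTN.

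At gene ends, the bins of ENSSSCG00000044834 were 11.3% and 10.9% in LW, and TTN minus this RNA was 10.7 and 15.1 points. In MS they were 32.3% and 30.4%, and the difference was -6.52 and -5.05 points. On anchors they were 3.78% and 4.71% in LW against 22.99% and 20.1% in MS. The mean difference of TTN to this RNA over the 4 libraries was 3.57 points at gene ends (SD 10.97, exact permutation test over paired libraries, two-sided, p = 0.625) and 6.27 points on anchors (SD 12.1, p = 0.500 by the same exact test), where 4 libraries can give no p below 0.125. It was of opposite sign in the breeds for both places.

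Against ENSSSCG00000048037 and ENSSSCG00000048856 TTN was lower throughout. At gene ends the mean of TTN minus the other was -3.44 points for ENSSSCG00000048037 and -10.7 for ENSSSCG00000048856. On anchors it was -10.6 and -23.02 points. It was lower in 4 of 4 libraries for each, with the smallest exact permutation p that 4 pairs allow, 0.125.

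**Figure D5:**
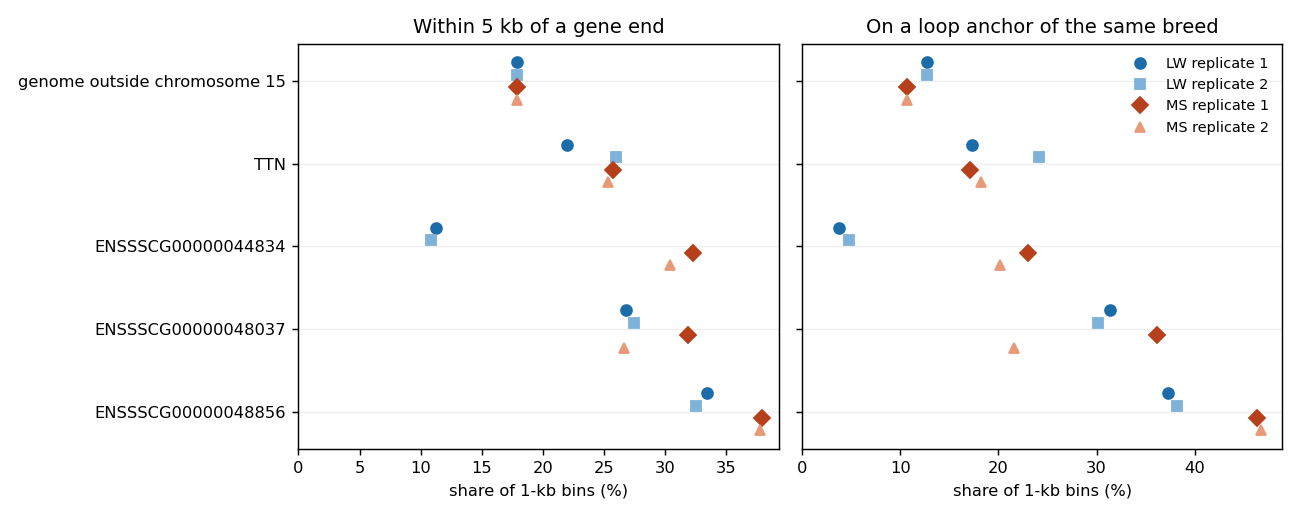
Share of 1-kb bins on chromosomes other than the RNA's own that lie within 5 kb of a gene end (left) and on a loop anchor of the same breed (right), in percent, for TTN, for 3 other RNAs and for all positions outside chromosome 15. Points are the 4 GRID-seq libraries. TTN lies above all positions in each library, ENSSSCG00000044834 lies below them in LW and above in MS, and the remaining RNAs lie above TTN.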

How the data were processed

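The authors mapped GRID-seq reads to Sscrofa11.1, with Trim Galore 0.4.5, Bowtie2 2.2.5, SAMtools 1.9 and MACS2 2.1.2 named in the submitters' processing notes, selected chromatin-enriched RNAs and corrected DNA bins for background. The deposited lists carry no column names, so the integer given for each RNA was taken as a count and the value per 1-kb bin, which starts at 0.02, as a signal. For BL-HiChIP the authors called 5-kb loops per library with FitHiChIP, and the deposited value was read as an adjusted p-value (FDR), with a limit of 0.01. Depth was 7172517 to 9943666 reads on 519 to 681 listed RNAs per GRID-seq library. An RNA or bin not listed is not shown to be absent.

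Repeated bins were summed. Genes were placed by RefSeq (Sscrofa11.1). Its table lacks strand, and a gene end here is either end. Unnamed transcripts (2.81 to 3.28% of reads) could not be matched between libraries and were left out of the test of reads. Counts were tested with edgeR 4.0.16 (TMM, quasi-likelihood), with DESeq2 1.42.0 as an alternative. Signal and loop scores (the sum of -log10 FDR) were tested with limma 3.58.1 in R 4.3.3 on log2(value + 1), which understates changes of low values, all with Benjamini-Hochberg adjustment. The loop score was quantile-normalized. Single values were compared by exact permutation. Tests were checked on simulated data. Python 3.11.15 ran the tables and plots (scipy 1.17.1, pandas 2.3.3, matplotlib 3.10.9, numpy 2.4.6).

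The gene, the lists and the tests were chosen with earlier results of these data known. Named were TTN, genes at far anchors, 5 genes per direction of smallest p with libraries apart, the 10 gene ends of highest mean signal, the 5 RNAs most like TTN, of which 1 is not reported here, and leading members of each list. The target genes were chosen by the study on data that include these samples, so their counts are not independent evidence.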

Additional observations from a re-analysis of the deposited data

Results flagged for a closer look

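The difference between TTN and the lncRNA ENSSSCG00000044834 had opposite signs in the breeds. For the share of trans bins at a gene end it was 12.9 percentage points in LW and -5.78 in MS, as means of 2 libraries, and for the share on loop anchors it was 16.5 in LW and -3.92 in MS. Both libraries of a breed went the same way for both places. The contrast between the breeds was not tested. ENSSSCG00000044834 had fewer trans bins in MS and TTN had more, and the part of these numbers in the contrast was not tested.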

How the results depend on the processing

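Of 55 alternatives over 7 results, 44 kept direction and side of the threshold, or for windows and gene ends kept 0 calls. Exact permutation gave 7 of these for the signal share on other chromosomes. For the differences to ENSSSCG00000044834 it gave 6 at gene ends and 7 on anchors. Its p cannot fall below 0.333 for the share or 0.125 for the differences. These alternatives could change direction only, and say nothing about the threshold. The share without 1 library had no p. Windows of 1 Mb went from 0 to 259 calls with a pseudocount of 0.1, and without MS replicate 1 or 2 to 297 and 334, a range of 0 to 334 over the libraries left out. Gene ends went from 0 to between 1584 and 4923 calls without 1 library. Without an MS library 3572 and 4865 of these were higher in MS, and without an LW library 1409 and 1406 were lower in MS. In these fits a gene without a listed bin in both libraries of the complete breed enters as 0 and has no spread. TTN reads changed by -0.14 with RNAs listed in any library (adjusted p = 0.0874, edgeR), and by -0.18 to -0.17 without 1 library (adjusted p 0.00737 to 0.0228). The TTN loop score changed sign with anchors within 5 kb (0.20) and ran from -0.42 to 0.36 (log2) without 1 library, being 0.36 without MS replicate 2. The difference to ENSSSCG00000044834 at gene ends ran from -0.28 to 6.93 points, being -0.28 without LW replicate 2, and on anchors from 1.89 to 10.3. The cause of these changes was otherwise not tested.

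TTN signal outside chromosome 15 had a larger share in MS by 18.6 to 22.05 points without 1 library, by 5.66 points as bins and by 2.39 as runs. Scaling to equal TTN signal moved the median log2 difference from 1.30 to 0.83 in windows and from 0.68 to 0.57 at gene ends. The count of runs, run summits and windows outside chromosome 15 were alternatives chosen after seeing the data.

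Replicate numbers name no shared animal or batch. Same-numbered libraries deviated together in reads (correlation 0.94) and loop scores (0.35), and not in windows (-0.02) or gene ends (0.01). With the replicate number as a block, windows and gene ends kept 0 calls, and the loop score changed by -0.03 (adjusted p = 1.00, limma). TTN reads changed by -0.17 (adjusted p = 1.88e-13, edgeR). That fit had few residual degrees of freedom, and 277 of 308 RNAs passed in it.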

Other observations

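Toward the ends of autosomes TTN differed in order between the breeds. Within 5 Mb of a chromosome end there were 21.9 and 20.5 runs per 10 Mb in LW, beside 17.5 and 13.9 in the rest. In MS there were 28.5 and 23.6, beside 29.5 and 25.0. The ends hold more protein-coding genes per Mb, 11.3 against 8.22.

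Some bins of TTN on other chromosomes also carried another of the wide RNAs. In LW 19.3% and 17.05% of TTN bins, and in MS 5.52% and 5.53%, carried ENSSSCG00000044834, which were 9.33% and 7.83% of the bins of that RNA in LW and 23.8% and 20.2% in MS. ENSSSCG00000048037 lay on 4.19% and 10.1% of TTN bins in LW and on 9.46% and 10.6% in MS, which were 6.42%, 6.65%, 12.7% and 7.73% of its own bins. ENSSSCG00000048856 lay on 1.50% and 2.50% in LW and on 2.66% and 6.27% in MS, which were 9.35%, 8.37%, 15.3% and 16.6% of its own.

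The RNAs inside TTN differed in their trans bins. ENSSSCG00000038561 had 913, 1399, 629 and 1648 trans bins of 1478, 2149, 999 and 2132 bins in all, and ENSSSCG00000042430 had 0 in all 4 libraries. ENSSSCG00000034677 had 73 in MS replicate 2 and 0 in the others.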
